A study of Homo sapiens with 18 samples.

Results

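Spliceosomal small nuclear RNAs (snRNAs) were followed in an RNA immunoprecipitation sequencing (RIP-seq) experiment in an established human cell line, the glioblastoma line U373-MG. The members were 8 genes fixed by their Ensembl IDs, out of 60666 IDs listed in each IP table. For the major spliceosome they were RNU4-1 (ENSG00000200795) and RNU4-2 (ENSG00000202538) for U4, RNU5A-1 (ENSG00000199568) and RNU5B-1 (ENSG00000200156) for U5, and RNU2-2 (ENSG00000222328) for U2. For the minor spliceosome they were RNU4ATAC (ENSG00000264229) for U4atac, RNU6ATAC (ENSG00000221676) for U6atac and RNU11 (ENSG00000274978) for U11. Symbols are those given with the list of IDs, since the deposited tables carry none. Of the 8, 6 could be tested in every comparison, and RNU2-2 and RNU4ATAC were listed with a mean of 0 in all 3 IP tables and not listed in the input table.

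The study compared cells retrovirally transduced with FLAG-tagged ADAR3 mutated in its R-domain (R-mutant), with the FLAG-tagged wild type (ADAR3 WT), or with an empty vector carrying only an antibiotic resistance gene (control). All 3 kinds of cells therefore went through transduction and were grown in G418, and neither form of ADAR3 was expressed from its own locus. ADAR3, encoded by ADARB2, is found mainly in brain and binds double-stranded RNA as other ADARs do, but has no known editing activity. Its R-domain is a stretch rich in arginine that can also bind single-stranded RNA. For each genotype, 3 input and 3 IP libraries were made after UV crosslinking at 150 mJ/cm2, 18 libraries in all, and the labels do not say whether replicates came from separate cultures, so that p-values may measure technical spread only. The comparisons ask which RNAs came down with each protein, and whether the R-domain mattered.

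The deposited files are comparison tables, so each value below is a log2 fold change ± its standard error as the authors estimated them, not a value per library. Library depth was not analysed here. An IP value is read as IP over input in one genotype relative to IP over input in the other. A positive value means higher recovery in the genotype named first, relative to the other RNAs of the same libraries, and control cells, which hold no FLAG-tagged protein, give the background of the precipitation. Members were tested by dividing the deposited fold by its error and taking a two-sided normal p, with Benjamini-Hochberg adjustment over all tested genes and a threshold of 0.05. Neither the identity markers of the cell line nor the transgene could be checked by name, because IDs other than those of the members were not paired with symbols here.

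Small nuclear RNAs are the RNA cores of the particles that remove introns. In the major spliceosome, U2 pairs with the branch point, U4 holds U6 in an inactive duplex, and U5 contacts the exon ends. U4, U5 and U6 join the spliceosome as a single tri-snRNP, from which U4 is released before catalysis. The minor spliceosome removes a small class of introns. There U11 recognises the 5′ splice site, and U4atac and U6atac take the places of U4 and U6. U4 and U4atac are extensively base-paired to U6 and U6atac.

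RefSeq coordinates were taken on GRCh38.p14, and all 8 symbols matched. RNU4-1 lies on chromosome 12 from 120293093 to 120293237, and RNU4-2 on the same chromosome from 120291759 to 120291903, with 1189 bases between them. Both are 145 bases long and overlap the span of the protein-coding gene SIRT4. RNU5A-1 (chromosome 15, 65296051 to 65296167) and RNU5B-1 (chromosome 15, 65304677 to 65304793) are 117 bases long and lie 8509 bases apart, outside any other annotated gene. RNU11 (chromosome 1, 28648600 to 28648734) overlaps the divergent transcript TAF12-DT. RNU6ATAC (chromosome 9, 134164439 to 134164564) overlaps an annotated long noncoding RNA.

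The 2 genes listed at 0 also overlap longer genes. RNU2-2 (chromosome 11, 62841619 to 62841809) lies within the span of WDR74. RNU4ATAC (chromosome 2, 121530880 to 121531009) lies within CLASP1 and its antisense transcript CLASP1-AS1. A mean of 0 was listed for 38.8% of all IDs in the table of ADAR3 WT over control. The part of overlapping annotation in the zeros was not tested. A listed 0 is not read here as absence of U2 or U4atac RNA from the cells.

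The snRNA families have further annotated copies, among which reads can be divided where sequences match. How alike the copies are was not examined here. RefSeq lists 2 snRNA loci and 89 pseudogenes of the U4 family, and 5 snRNA loci and 29 pseudogenes of the U5 family. For U6atac there are 41 pseudogenes beside 1 snRNA locus, and for U11 there are 5 beside 1. The sources used here do not say how reads with several equal matches were counted. The values of RNU4-1 and RNU4-2, and likewise those of RNU5A-1 and RNU5B-1, are therefore treated as uncertain between copies and not as independent replicates of a family.

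The 6 measured genes differed widely in mean count. In the input comparison, the deposited mean normalized count was 644 for RNU4-2, 427 for RNU4-1, 273 for RNU11, 146 for RNU5A-1, 96.2 for RNU5B-1 and 9.23 for RNU6ATAC. Per 100 bases of gene length, the mean normalized count was 444 for RNU4-2 and 202 for RNU11, against 7.33 for RNU6ATAC. RNU6ATAC thus had the lowest mean count of the 6 measured genes and the widest errors. A count is not read here as the abundance of the RNA. Its standard error in ADAR3 WT over control was 1.74 on the log2 scale, against 0.29 for RNU4-2. The order of the means was the same in all 4 tables. In R-mutant over ADAR3 WT all 6 had wider errors than is usual at their means. The standard error was 0.50 for RNU5A-1 and 0.43 for RNU4-1, where the median over tested genes within 2-fold of the same mean was 0.35 and 0.27. All 6 errors were also wider than that median in R-mutant over control, with 0.47 against 0.34 for RNU4-1. In ADAR3 WT over control all but that of RNU4-2 were wider, with 0.45 against 0.34 for RNU4-1.

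**Figure D1:**
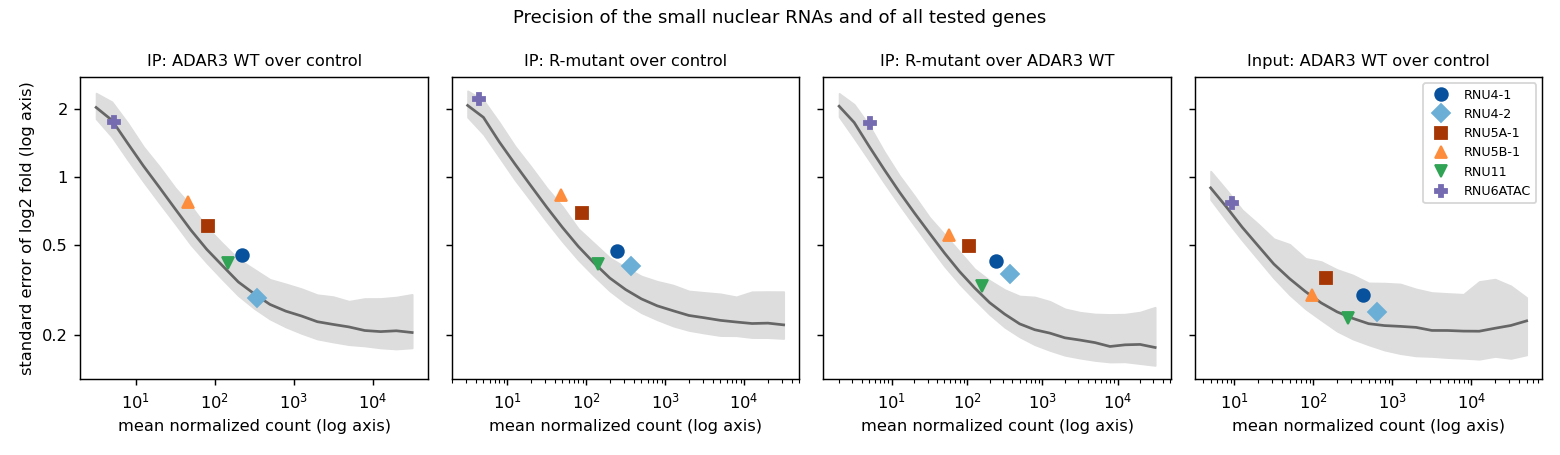
Standard error of the log2 fold change against mean normalized count (both log axes) in the 4 comparisons. Symbols are the 6 measured snRNAs, the line is the median of all tested genes in bins of mean, and the band runs from their 5th to their 95th percentile; RNU6ATAC stands at the low end of the means with errors between 0.77 and 2.21.

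The U4 genes were recovered less in the IP of cells expressing ADAR3 WT, relative to other RNAs. In ADAR3 WT over control, RNU4-1 fell by 2.13 ± 0.45 on the log2 scale (standard error), to 0.228 times the control value with a 95% interval of 0.123 to 0.422 (normal test adjusted p 7.91e-05). RNU4-2 had a log2 fold change of -1.82 ± 0.29, or 0.284 times control with an interval of 0.191 to 0.423 (normal test adjusted p 5.59e-08). These 2 of the 6 tested members were called lower and 0 higher, while 8.14% of all tested genes were called lower and 5.99% higher. Both are copies of U4 among which reads can be divided, so they are not independent calls. The log2 fold change of RNU4-1 lay above only 1.77% of the 21121 tested genes, and that of RNU4-2 above 2.79%. When the ratio of fold to error was centred and divided by its robust spread over all tested genes, RNU4-2 still passed and RNU4-1 did not (normal test adjusted p 0.0955), where 2.03% of all tested genes passed in either direction.

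The other members did not pass the test in ADAR3 WT over control. RNU5A-1 had a log2 fold change of 1.03 ± 0.60, with a 95% interval of -0.16 to 2.21 (normal test adjusted p 0.288). RNU5B-1 had 0.70 ± 0.78, with an interval of -0.82 to 2.23 (normal test adjusted p 0.645). Both U5 values lay above 0, on the opposite side from U4, but neither interval excluded 0. RNU11, of the minor spliceosome, had -0.26 ± 0.42 (normal test adjusted p 0.771), and RNU6ATAC had -0.45 ± 1.74 (normal test adjusted p 0.917). Of the 6 members, 4 had values below 0, where 49.3% of all tested genes did. Their median was -0.35 on the log2 scale, against 0.01 over all tested genes. That median joins genes on both sides of 0 and describes no single member.

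Lower recovery of U4 was also found with the R-mutant. In R-mutant over control, RNU4-1 had a log2 fold change of -2.59 ± 0.47, or 0.166 times control with a 95% interval of 0.0875 to 0.315 (normal test adjusted p 2.67e-06). RNU4-2 had -2.34 ± 0.40, or 0.197 times control with an interval of 0.114 to 0.341 (normal test adjusted p 5.95e-07). They were the 2 of 6 members called lower, again copies of the same RNA, and 0 were called higher. Of all tested genes, 7.95% were called lower and 5.38% higher. RNU4-1 lay above 1.07% of the tested genes in log2 fold change and RNU4-2 above 1.43%. With the ratio of fold to error centred and divided by its robust spread, the values were much weaker. The normal test adjusted p was then 0.0350 for RNU4-1 and 0.0213 for RNU4-2. The share of all tested genes that passed this rescaled test is not given here. The control libraries are shared with the comparison of ADAR3 WT, so the 2 results are not independent of each other.

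In R-mutant over control all 6 tested members had values below 0, where 48.3% of all tested genes did. RNU5A-1 had -0.75 ± 0.70, with a 95% interval of -2.11 to 0.61 (normal test adjusted p 0.560). RNU5B-1 had -0.97 ± 0.84, with an interval of -2.61 to 0.67 (normal test adjusted p 0.524). The U5 values were thus below 0 with the R-mutant and above 0 with ADAR3 WT, and none of these values passed on its own. RNU11 had -0.64 ± 0.41 (normal test adjusted p 0.342). RNU6ATAC had -3.48 ± 2.21, on a mean of 4.41 normalized counts (normal test adjusted p 0.338), and its interval ran from -7.81 to 0.86.

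**Figure D2:**
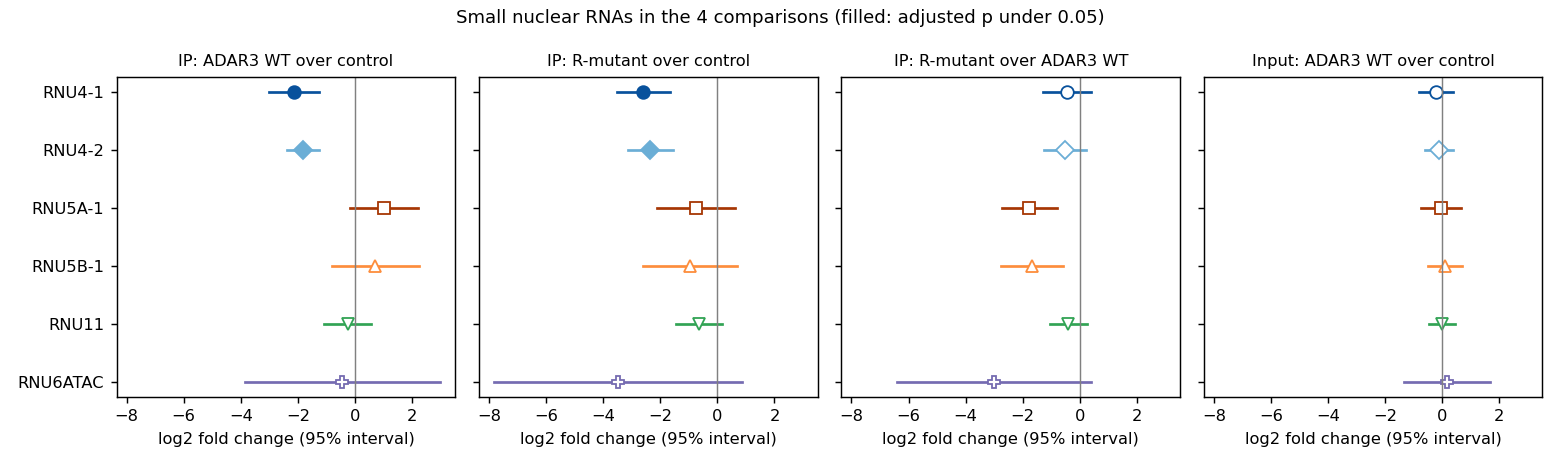
Log2 fold change (horizontal axis) with its 95% interval for the 6 measured snRNAs in the 4 comparisons; filled symbols have a normal test adjusted p under 0.05. RNU4-1 and RNU4-2 are filled and below -1.8 in both comparisons with control, the U5 genes change sides of 0 between them, and in the input every value lies between -0.22 and 0.17.

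R-mutant over ADAR3 WT sets the mutated protein directly against the wild type, each in its own transduced cells. How much of each protein was expressed or precipitated was not examined here, and its part in these values was not tested. By the normal test 0 of the 6 members passed at an adjusted p under 0.05, and of all 23385 genes tested 1 did, so that 0.00428% were called lower and 0% higher. The U5 genes had the lowest ratios of fold to error among the members. RNU5A-1 had a log2 fold change of -1.77 ± 0.50, or 0.293 times ADAR3 WT with a 95% interval of 0.150 to 0.574 (normal test unadjusted p 0.000349, adjusted p 0.817). RNU5B-1 had -1.67 ± 0.55, or 0.314 times ADAR3 WT with an interval of 0.148 to 0.666 (normal test unadjusted p 0.00252, adjusted p 1.00). An unadjusted p under 0.05 with a lower value was found for these 2 of the 6 members, against 0.385% of all tested genes. Both are copies of U5, so they are not independent calls.

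The U5 genes stood at the lower edge of this comparison as a whole. Only 8 of the 23385 tested genes had a lower ratio of log2 fold change to standard error than RNU5A-1, and 20 had a lower ratio than RNU5B-1. That ratio had a standard deviation of 0.659 across all tested genes, against 1.98 in ADAR3 WT over control and 1.93 in R-mutant over control. With the ratio centred and divided by its robust spread, RNU5A-1 (adjusted p 1.46e-05) and RNU5B-1 (adjusted p 0.000969) both passed the normal test, as did 0.334% of all tested genes in either direction. The call for U5 therefore rests on how the error is scaled.

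The remaining members had smaller or less precise values in R-mutant over ADAR3 WT. RNU4-1 had a log2 fold change of -0.46 ± 0.43, RNU4-2 of -0.53 ± 0.37 and RNU11 of -0.40 ± 0.33 (normal test adjusted p 1.00 for each). Their 95% intervals reached down to -1.29, -1.26 and -1.04, so a 2-fold lower recovery with the R-mutant was not excluded for any of them. RNU6ATAC had -3.01 ± 1.73 on a mean of 5.20 normalized counts (normal test unadjusted p 0.0815). All 6 tested members had values below 0, where 53.9% of all tested genes did, and their median was -1.10 against -0.02 over all tested genes. The 3 IP tables hold no more than a pair of independent contrasts: for each member, the value of R-mutant over ADAR3 WT equalled the difference of the values over control to within 0.0224.

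**Figure D3:**
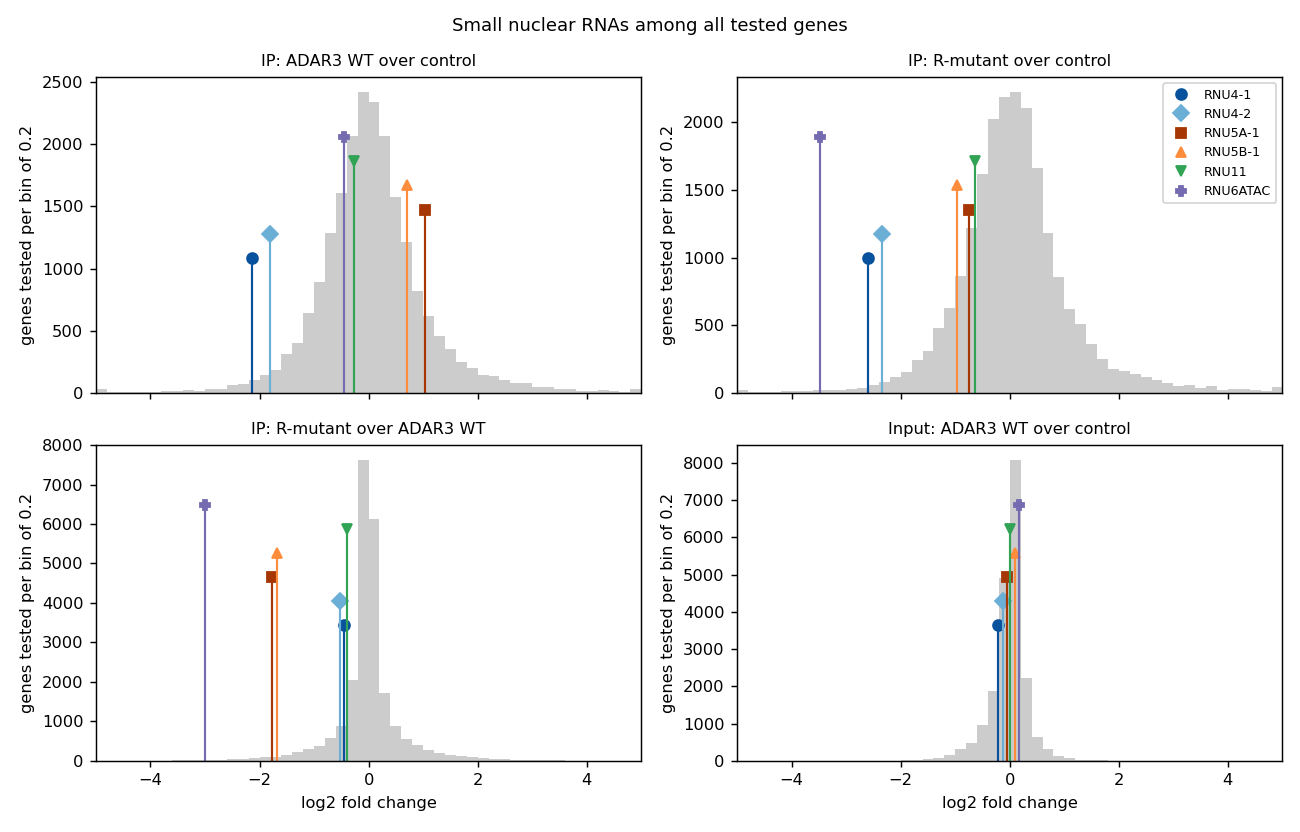
Number of tested genes per bin of 0.2 in log2 fold change (grey bars, values beyond 5 in size set at the edge) with the 6 measured snRNAs marked by lines and symbols; line heights only separate the symbols. The U4 genes lie in the lower tail in both comparisons with control, and the U5 genes lie in that tail for R-mutant over ADAR3 WT, at -1.77 and -1.67.

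The input RNA showed no called change of any member. In ADAR3 WT over control input, 0 of 6 members passed the normal test at an adjusted p under 0.05, where 0.186% of all tested genes were called lower and 0.103% higher. At an unadjusted p under 0.05 there were also 0 of 6, where 1.99% of all tested genes were lower, and by the authors' adjusted p in their deposited table there were 0 of 6, where 0.289% of all tested genes passed. RNU4-1 had a log2 fold change of -0.22 ± 0.30 and RNU4-2 of -0.12 ± 0.25. RNU5A-1 had -0.06 ± 0.36, RNU5B-1 had 0.09 ± 0.30, RNU11 had -0.00 ± 0.24 and RNU6ATAC had 0.17 ± 0.77. The 95% interval excluded a 2-fold change in either direction for 5 of the 6, as it did for 66.8% of all tested genes, and RNU6ATAC was the exception. For RNU4-1 the interval ran from -0.81 to 0.37 and for RNU4-2 from -0.62 to 0.38, while both had IP values below -1.8 in ADAR3 WT over control. Input of the R-mutant was not compared in the deposited tables used here.

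Differences between members within a comparison were tested for 15 pairs each, by a normal test of the difference of the deposited log2 fold changes that treats the errors of both genes as independent. Errors of genes measured in the same libraries may not be independent. In ADAR3 WT over control, 6 of 15 pairs passed at an adjusted p under 0.05 over the pairs. The ratio of fold to error had a robust spread of 1.59 over all tested genes there. The pair tests were not rescaled by that spread, under which RNU4-1 had not passed alone, so these calls rest on the deposited errors. The passing pairs were the 4 pairs of a U4 gene with a U5 gene and the 2 pairs of a U4 gene with RNU11. Pairs that share a family are not independent of each other. RNU4-1 minus RNU5A-1 was -3.16 ± 0.76 on the log2 scale (normal test adjusted p 0.000214 over pairs), and RNU4-2 minus RNU5B-1, the smallest of the 4, was -2.52 ± 0.83 (adjusted p 0.00602). RNU4-1 minus RNU11 was -1.87 ± 0.62 (adjusted p 0.00602), and RNU4-2 minus RNU11 was -1.56 ± 0.51 (adjusted p 0.00602). With the 2 standard errors added, as for fully opposed errors, only 2 of the 15 pairs passed, both of U4 with U5.

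The deposited errors gave no passing pair of U4 with U5 in the other IP comparisons, but their scale differed between comparisons. The ratio of fold to error had a robust spread of 0.605 for R-mutant over ADAR3 WT. Against control it was 1.59 for ADAR3 WT and 1.60 for the R-mutant. The pair tests were not rescaled by these spreads, so their counts do not rank the comparisons by how firmly U4 and U5 differed. In R-mutant over control, U4 minus U5 ranged from -1.84 to -1.38 over the 4 pairs, and none passed (lowest adjusted p 0.142 over pairs). The 2 pairs that did pass there were of RNU4-1 and RNU4-2 with RNU11, with differences of -1.95 ± 0.63 and -1.70 ± 0.58 (normal test adjusted p 0.0241 over pairs for each). With the standard errors added, 0 of the 15 pairs passed. In R-mutant over ADAR3 WT, U4 minus U5 had the opposite sign, from 1.14 to 1.31, with a lowest adjusted p of 0.179 over pairs, and 0 of 15 pairs passed. In the input 0 of 15 pairs passed, and the largest difference was 0.388 in size.

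Copies within a family did not differ beyond their errors. RNU4-1 minus RNU4-2 was -0.32 ± 0.54 in ADAR3 WT over control and -0.25 ± 0.62 in R-mutant over control. RNU5A-1 minus RNU5B-1 was 0.32 ± 0.99 and 0.22 ± 1.09 in the same comparisons, and -0.10 ± 0.74 in R-mutant over ADAR3 WT. In ADAR3 WT over control the 95% interval of the difference ran from -1.37 to 0.74 for U4 and from -1.61 to 2.25 for U5. Differences of about 1 on the log2 scale between copies, and larger ones for U5, would not have been detectable with these errors.

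**Figure D4:**
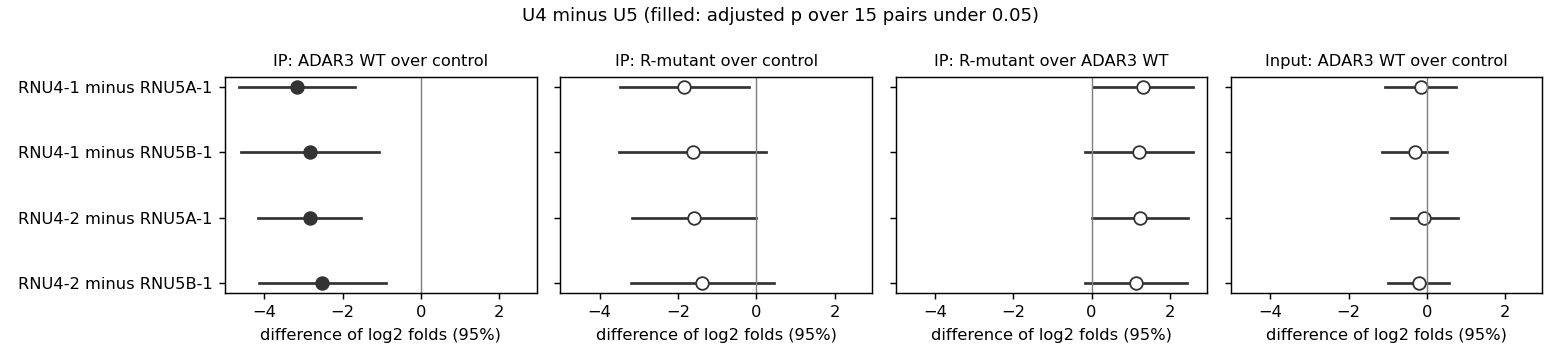
Difference of log2 fold changes (horizontal axis) between each U4 gene and each U5 gene with its 95% interval, in the 4 comparisons; filled points have an adjusted p over 15 pairs under 0.05. All 4 differences are filled and between -3.16 and -2.52 in ADAR3 WT over control, open and positive in R-mutant over ADAR3 WT, and close to 0 in the input.

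The authors' own test gave more calls. By the adjusted p in the authors' deposited tables, RNU4-1, RNU4-2, RNU5A-1, RNU5B-1 and RNU11 passed in all 3 IP comparisons, and RNU6ATAC passed in R-mutant over ADAR3 WT alone. The background was high: against control, 43% of tested genes passed for ADAR3 WT and 40.8% for the R-mutant, and between these proteins 51.1% did. The likelihood ratio statistic of the authors' deposited tables matches 7 degrees of freedom and so covers more terms than the log2 fold change printed beside it. RNU11 is an example: in the authors' deposited table of R-mutant over ADAR3 WT its statistic was 227 and its adjusted p 7.06e-44, beside a log2 fold change of only -0.40 ± 0.33. These calls therefore do not give a direction for a member.

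The IDs with the most similar pattern were found by Euclidean distance from the members' median over the 4 log2 fold changes, among 13280 IDs whose mean was 50 or more in every table. The nearest was ENSG00000183117 at a distance of 0.499, with log2 fold changes over control of -0.64 for ADAR3 WT and -1.41 for the R-mutant, of -0.78 for R-mutant over ADAR3 WT, and of 0.01 in the input. It was followed by ENSG00000113212 at 0.579. The median that they resemble joins U4 and U5 values that lie apart.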

How the data were processed

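RIP-seq was done on 18 libraries of U373-MG cells in 6 groups of 3 (3 genotypes, input and IP). Per the submitters' processing notes, STAR 2.7.7a, featureCounts, DESeq2 and GRCh38 were used; the sources used here do not give the annotation, strand setting or model. The 4 deposited tables give, per the file headers, a mean signal (mean normalized count), a log2 fold change and its error, a score (the authors' test statistic) and p-values. The 6 per-library columns of the input table match no label and were not used, and depth per library was not analysed here. IP folds were read as ratios of IP over input. This rests on the tables' names and on low-mean IDs: over IDs with an input mean under 10, the slope of the IP fold on the input fold was -0.79 for ADAR3 WT over control, the sign that input in the denominator gives.

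Folds were tested with a two-sided normal test, adjusted by Benjamini-Hochberg over 21121, 21120, 23385 and 20411 genes, in Python 3.11.15 with numpy 2.4.6, scipy 1.17.1 and pandas 2.3.3. The members, lists and test were chosen with earlier results of these data known. Planned lists of snRNP protein genes, other snRNA loci and named small RNAs were not analysed here, because no table paired their IDs with symbols. All 8 members are named, and otherwise the nearest IDs by pattern. The plan counted 28 pairs of members, and 15 could be formed from the 6 measured. Alternatives were the authors' adjusted p, a stricter threshold, a minimum fold, filters on the mean, centring and rescaling.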

Additional observations from a re-analysis of the deposited data

How the results depend on the processing

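No paired analysis was possible because the names of the per-library columns carry no genotype of the labels; likewise no replicate was left out, and medians and counts of the planned gene lists were not run. By the authors' adjusted p, against control 5 members passed for ADAR3 WT and 5 for the R-mutant, and 6 passed between these proteins, where the normal test gave 2, 2 and 0; that test covers more terms than the fold. With the ratio of fold to error centred and divided by its spread, 1 member passed in ADAR3 WT over control (RNU4-2, where 2.03% of all tested genes passed) and 2 in R-mutant over ADAR3 WT (RNU5A-1 and RNU5B-1, where 0.334% passed). In R-mutant over control the rescaled normal test adjusted p was 0.0350 for RNU4-1 and 0.0213 for RNU4-2. The share of all tested genes that passed this rescaled test there is not given here. Under the other alternatives (a threshold of 0.01, a log2 fold of at least 1, a mean of at least 50, no filter, centred folds), the counts of members called stayed at 2, 2, 0 and 0. The shares of all tested genes called under these alternatives are not given here, so these counts have no background to be read against. With a mean of at least 50, RNU6ATAC was left out of all comparisons and RNU5B-1 of both with control. Both settings of the pairs were added after the data had been seen. With standard errors added, 2 pairs passed in ADAR3 WT over control and 0 in R-mutant over control; without RNU6ATAC, the pairs passing stayed at 6 and 2. Depth per library was not analysed here, and RNU6ATAC had too few counts for a 2-fold change to be detectable.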

Other observations

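The deposited mean of each snRNA was higher in the input table than in the IP tables. Set against ADAR3 WT over control, the ratio of the input table's mean to the IP table's mean was 1.90 for RNU4-1, 1.85 for RNU4-2, 1.79 for RNU5A-1, 2.07 for RNU5B-1 and 1.87 for RNU11. The median ratio over 13661 IDs with an input mean of at least 50 was 1.18, and at least 99.4% of these IDs had a lower ratio than each of the 5 snRNAs. The ranks were less extreme against the other IP tables. For R-mutant over control, the ratio ran from 1.66 for RNU5A-1, above 90.4% of IDs, to 2.02 for RNU5B-1, above 99.4%. The median ratio there was 1.28. Set against R-mutant over ADAR3 WT, the ratio was 1.37 for RNU5A-1, above 77.6% of IDs, and 1.68 to 1.78 for the other 4. The tables were normalized separately and the libraries behind each mean are not stated, so these ratios are descriptions and were not tested.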
